A study of Saccharomyces cerevisiae with 6 samples.

Results

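The genes described here are budding yeast open reading frames that carried no gene name of their own in the deposited table, so that the gene column repeats the systematic name. They were chosen by their read counts, and kept if every one of the 6 libraries held 50 or more reads of them, with 2 genes left out by name, which gave 129 members out of 4909 listed genes. A gene that dropped below 50 reads in any library is not among them. Native polyadenylated RNA was sequenced on nanopores, and each gene has a read count and a median poly(A) tail length in each library. There were 3 groups of 2 libraries.

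The Dcp2 degron strain LMA5574 carries DCP2::polyG-3Flag-AID::kanMX, and the Ccr4/Pop2 degron strain LMA5601 carries AID-3Flag-CCR4 together with CAF1::AID-KanMX6, where CAF1 is another name of POP2. Both are described as BY4741 derivatives, Mat a, and both also carry TAO3_E1493Q, an inserted A at -308 of RME1, and an insertion at trp1-1 of TRP1 with the prURA3-Z3EVtf-tURA3 and Z3EV-TIR cassettes, which supply the estradiol-responsive factor and the auxin receptor. The wild type was BY4741 (leu2Δ0, his3Δ1, ura3Δ0, met15Δ0, Mat a). It received the same additions as the degron strains, which were IAA, an auxin, at 100 µM with β-estradiol at 1 µM, given over 1 h to cells growing exponentially in YPD at 30 °C. The degron strains thus differ from the wild type in the tags, in the transgene and in the other alleles, whose parts in any difference cannot be told apart. The labels do not say whether the 2 libraries of a group came from separate cultures, so p-values measure the spread between these libraries, which may be technical.

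In the main pathway of messenger RNA decay in yeast, the Ccr4-Not complex first shortens the poly(A) tail through its nucleases Ccr4 and Pop2. Dcp2 then removes the 5′ cap, and the body of the RNA is degraded from the 5′ end. Unnamed open reading frames are mostly genes whose function had not been settled when the annotation was made, and many encode probable enzymes known only from sequence similarity.

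Of 367 unnamed open reading frames in the table, 238 had fewer than 50 reads in a library. The members nearest the minimum were YBR220C, YOR111W, YLR050C and YLR049C, with a lowest count of 50 reads, and YLR126C with 51. Just outside it were YBR219C and YPR011C with 49, YLR415C and YBR053C with 48, and YBR016W with 47. YBR220C and its outside neighbour YBR219C overlap on the same strand. Their counts were nearly equal in every library, from 364 and 356 in replicate 1 of the Ccr4/Pop2 degron to 50 and 49 in replicate 2 of the wild type. The pair is therefore not taken as separate measurements. The member YBR090C overlaps YBR089C-A on the same strand, so its reads may be mixed too. All 129 members matched a locus of the RefSeq annotation of assembly R64, which is the assembly of the sacCer3 build named in the submitters' processing notes. In that annotation 34 members now have a symbol, 64 have a product called uncharacterized and 65 have a described product. By the words of the product, 11 were hydrolases, peptidases or phosphatases, 8 reductases or dehydrogenases, 5 transferases or kinases, 3 helicases and 3 ribosome-related. The members lie on 15 chromosomes and 12 have an intron. Their median coding length was 813 bases, against 930 bases for the 2205 named genes with 50 or more reads in every library and 1074 bases for the 237 unnamed frames below the minimum that matched the annotation.

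The libraries held 1067250 and 1967303 reads in Dcp2-degron cells, 8450296 and 1825046 in Ccr4/Pop2-degron cells, and 1857632 and 1751159 in wild-type cells (replicates 1 and 2). In replicate 1 of the Ccr4/Pop2 degron all 4909 counts were multiples of 4, against 1167 to 1271 genes in the other libraries, so its counts may not be numbers of separate reads and its depth is uncertain. Divided by 4, its counts still left all 129 members at 50 reads or more. The members took 1.86% and 1.83% of the reads in Dcp2-degron cells, 1.27% and 1.33% in Ccr4/Pop2-degron cells, and 1.22% and 1.26% in wild-type cells. DCP2 itself had 37 and 45 reads in Dcp2-degron cells and 99 and 68 in wild-type cells, and POP2 had 408 and 45 reads in Ccr4/Pop2-degron cells and 137 and 62 in wild-type cells. These are raw counts from libraries of unlike depth, and the 408 comes from the library of uncertain depth, so no direction is read from them. Since the degron targets proteins, RNA counts leave depletion unmeasured. The mating type a genes STE2, MFA1 and MFA2 had reads in every library, and STE3 and MF(ALPHA)1 of the other mating type were not among the listed genes. HIS3, partly deleted in BY4741, had between 74 and 716 reads in every library.

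In wild-type cells the members spanned a wide range of RNA level. Levels are given as CPM, reads scaled to a common library size (counts per 1e+06) after TMM scaling. CPM per kilobase of coding sequence is added for the wild type only. The highest CPM belonged to YNL208W, an uncharacterized protein, with 403 and 951 CPM in the wild-type libraries. It was followed by YPL225W (CHP1), a chaperone for the biogenesis of the elongation factor Tef1, with 295 and 986 CPM. YNL010W (PYP1), a putative phosphoric monoester hydrolase, came next with 381 and 595 CPM. The replicates of each of these genes lay further apart than the means of the genes did, so their order is not resolved. Per kilobase the highest wild-type values were those of YBL028C at 1487, YPL225W at 1452, YDR210W (CPP2, a cysteine-rich palmitoylated protein) at 1449 and YJR085C (TMH11). These frames are short, with 321, 441, 228 and 318 coding bases. Nanopore reads begin at the 3′ end of the RNA, so dividing by coding length favours short frames. The order per kilobase is therefore not an order of RNA level. In every group the replicate 2 library was, relative to replicate 1, higher for short members than for long ones. The Spearman coefficient of coding length with the replicate 2 minus replicate 1 difference in log2 CPM over the 129 members was -0.61 in Dcp2-degron cells, -0.59 in Ccr4/Pop2-degron cells and -0.56 in wild-type cells. Over all genes, same-numbered libraries deviated together from their group means (correlations of 0.804, 0.823 and 0.794 for the 3 pairs of groups). The fit that takes the replicate number as a block is therefore given for level, beside the fit with no block. The fit with no block was the planned one, and it called 0 members in each comparison. Adjusted p-values of single genes with the block rest on a pairing taken from these same data. Counts are shares of the RNA sequenced, so fewer cells in a state and less RNA per cell cannot be told apart.

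When the Dcp2 degron was compared with the wild type, the question was which unnamed frames changed in level when the decapping enzyme was targeted. The uncharacterized genes YNL046W, YCL068C and YPL034W and the inhibitor-like YHR138C rose most in Dcp2-degron cells. MYG1 and YHR054C fell most. With the replicate block, edgeR's quasi-likelihood test at an adjusted p under 0.05 called 30 of 129 members higher, where 17.6% of all 4909 genes were called higher, and 14 lower, where 19.7% were. Among the 2205 named genes of the same depth, 11.7% were called higher and 36.4% lower. The median log2 change without the block was 0.07 over the members, -0.23 over the named genes and -0.02 over all genes. Nothing is read from these shares, since a minimum in every library chose the members. Without the block edgeR called 0 members (0.00% of all genes), 12 members had an unadjusted p under 0.05 (11.8% of all genes), and DESeq2 called 0. Both CPM values lay above both wild-type values for 21 members and below them for 22, where 21.8% and 20.4% of all genes did so. The calls with the block numbered 19 without replicate 1 of the wild type (18.1% of all genes) and 27 without its replicate 2 (25.1%). Scaling by total counts moves the median change of all genes to 0.51, and with the block it turned the calls to 85 higher (50.7% of all genes) and 1 lower (6.11%), so that the lower calls are relative to the TMM scale.

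The largest change belonged to YNL046W (chrXIV:542304-542822, plus strand), an uncharacterized protein. It had 144 and 254 CPM in Dcp2-degron cells and 48.4 and 97.4 CPM in wild-type cells, from 234 and 503 reads and 94 and 121 reads. Both degron values lay above both wild-type values. The log2 change with the block was 1.47 (SE 0.15), with an edgeR adjusted p of 1.37e-06 and of 0.363 without the block. YCL068C (chrIII:11503-12285, minus strand), another uncharacterized protein, had 126 and 354 CPM in Dcp2-degron cells and 49.9 and 137 CPM in wild-type cells. Its groups overlapped, and each degron library was higher than the wild-type library of the same number. Its log2 change with the block was 1.36 (SE 0.15, edgeR, adjusted p = 1.63e-06, and 0.515 without the block).

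YPL034W had 90.8 and 145 CPM in Dcp2-degron cells and 33.4 and 65.2 CPM in wild-type cells, which did not overlap, a log2 change of 1.28 (SE 0.18) with the block. YJR149W, a putative nitronate monooxygenase, had 309.9 and 234 CPM in Dcp2-degron cells and 153 and 118 CPM in wild-type cells. Its groups did not overlap either and its log2 change was 1.00 (SE 0.13). YOL014W, YIL077C (RCI37) and YBR062C rose by 0.99, 0.88 and 0.88 on the log2 scale with the block. In YBR062C, which had 114 and 369 CPM in Dcp2-degron cells and 66.4 and 192 CPM in wild-type cells, replicates differed more than groups, and without the block the change turned to -0.18 when replicate 2 of the Dcp2 degron was left out.

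Among the members that were lower in Dcp2-degron cells, YER156C (MYG1) had 57.4 and 85.9 CPM, against 87.5 and 192 CPM in wild-type cells. The highest degron value lay just under the lowest wild-type value, and the log2 change with the block was -0.92 (SE 0.17, edgeR, adjusted p = 0.000278). It was the member still called lower with the block under total-count scaling, at -0.40. YHR054C had 55.0 and 73.3 CPM in Dcp2-degron cells and 106 and 125 CPM in wild-type cells. Its groups did not overlap, but its last 150 coding bases occur 2 times in the genome, so its reads cannot be assigned with certainty. YHR020W, which encodes a proline tRNA ligase, had 104 and 81.9 CPM in Dcp2-degron cells and 217 and 111 CPM in wild-type cells, groups apart by a small margin, with a log2 change of -0.76 (SE 0.18). YLR225C, YNR021W, YCR016W (RBP95, a ribosome assembly factor), YNL050C, YNL010W (PYP1), YMR295C (GSR1) and YDL121C (EXP1) fell by between 0.54 and 0.77 on the log2 scale with the block. For YDL121C the change without the block turned to 0.20 when replicate 2 of the wild type was left out.

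**Figure D1:**
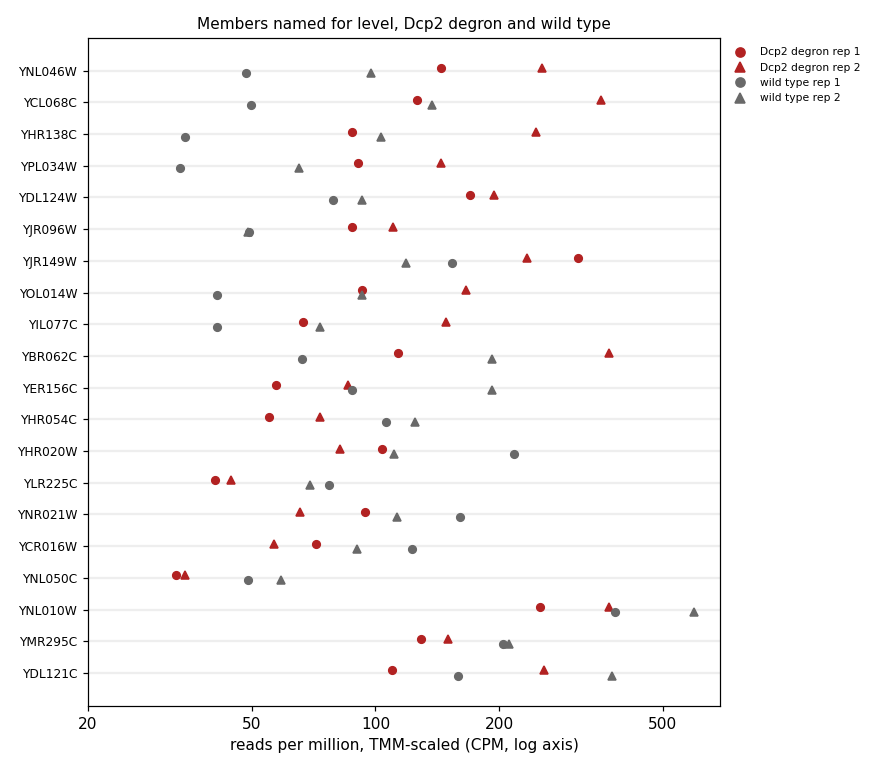
RNA level (CPM, log axis) of the 20 members named for level in the comparison of Dcp2-degron with wild-type cells, with 1 point per library, circles for replicate 1 and triangles for replicate 2. The upper 10 rows are members higher in Dcp2-degron cells (red) and the lower 10 rows members lower in them, each relative to the wild-type library of the same number (grey).

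Among genes known as induced by many stresses, 3 of a list of 14 unnamed frames were members, while 7 were below 50 reads in a library and 4 were not unnamed rows of the table. The 3 were YHR138C, which resembles the proteinase B inhibitor Pbi2, and the aldo-keto reductases YDL124W and YJR096W. The list was chosen with earlier results of these data known, so the calls on it are descriptions and no support for a stress pattern. All 3 were called higher in Dcp2-degron cells with the block under TMM scaling, where 17.6% of all genes were. In Ccr4/Pop2-degron cells 2 of them were called higher, where 14.2% of all genes were. Under total-count scaling with the block all 3 were called higher in both degrons, where 50.7% of all genes were in Dcp2-degron cells and 20.2% in Ccr4/Pop2-degron cells. YHR138C had 87.7 and 245 CPM in Dcp2-degron cells, 83.1 and 165 CPM in Ccr4/Pop2-degron cells and 34.5 and 103 CPM in wild-type cells. Each degron library was above the wild-type library of the same number, while the groups overlapped. The log2 changes with the block were 1.29 (SE 0.17) in Dcp2-degron cells and 0.98 (SE 0.17) in Ccr4/Pop2-degron cells, with edgeR adjusted p-values of 1.46e-05 and 0.000449.

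YDL124W had 169.8 and 194 CPM in Dcp2-degron cells, 157 and 125 CPM in Ccr4/Pop2-degron cells and 78.7 and 92.6 CPM in wild-type cells. All 4 degron values lay above both wild-type values. The log2 changes with the block were 1.10 (SE 0.16) and 0.76 (SE 0.16), with edgeR adjusted p-values of 4.18e-05 and 0.00213. YJR096W had 87.7 and 110.2 CPM in Dcp2-degron cells, 60.9 and 78.1 CPM in Ccr4/Pop2-degron cells and 49.4 and 49.1 CPM in wild-type cells, again without overlap between either degron and the wild type. Its changes were 0.98 (SE 0.17, edgeR with the block, adjusted p = 0.000221) and 0.45 (SE 0.17, adjusted p = 0.0568).

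The 250-base windows that end 50 bases before the start codons of these 3 genes, and of the aldehyde reductase gene YNL134C described below, are shown because each holds the core of the stress response element, AGGGG or CCCCT on the other strand, which the factors Msn2 and Msn4 are known to bind. They were read 5′ to 3′ on the strand of the gene from the RefSeq genome R64, with the core in capitals.
YHR138C (chrVIII:377750-377999, minus strand): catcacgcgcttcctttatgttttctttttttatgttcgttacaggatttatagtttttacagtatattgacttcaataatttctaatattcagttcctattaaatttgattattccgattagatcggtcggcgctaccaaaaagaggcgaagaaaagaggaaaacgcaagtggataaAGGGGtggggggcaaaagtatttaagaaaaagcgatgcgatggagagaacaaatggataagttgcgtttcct
YDL124W (chrIV:239959-240208, plus strand): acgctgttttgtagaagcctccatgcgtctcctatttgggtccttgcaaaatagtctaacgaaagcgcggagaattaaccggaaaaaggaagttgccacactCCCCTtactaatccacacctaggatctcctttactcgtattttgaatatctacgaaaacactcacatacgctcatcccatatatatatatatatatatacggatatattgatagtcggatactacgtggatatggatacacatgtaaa
YJR096W (chrX:610895-611144, plus strand): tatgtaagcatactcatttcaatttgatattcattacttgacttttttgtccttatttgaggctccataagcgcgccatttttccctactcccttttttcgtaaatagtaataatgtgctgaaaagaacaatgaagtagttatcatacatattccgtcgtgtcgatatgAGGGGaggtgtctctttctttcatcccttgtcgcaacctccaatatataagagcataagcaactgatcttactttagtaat
YNL134C (chrXIV:373632-373881, minus strand): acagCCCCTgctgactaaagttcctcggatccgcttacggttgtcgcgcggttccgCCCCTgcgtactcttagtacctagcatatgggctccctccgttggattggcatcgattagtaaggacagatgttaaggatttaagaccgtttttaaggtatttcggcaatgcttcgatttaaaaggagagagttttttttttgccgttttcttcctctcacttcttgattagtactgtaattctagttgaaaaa
The core was found in the windows of 28 of 129 members (21.7%), of 19.2% of all 6001 genes and of 18.1% of the named genes of the same depth. With the block, 7 of these 28 were called higher in Dcp2-degron cells and 2 lower (17.6% and 19.7% of all genes). Of the 101 members without the core, 23 and 12 were. In Ccr4/Pop2-degron cells the calls were 7 and 2 with the core and 6 and 25 without it (14.2% and 12.8% of all genes). The PAC element GATGAG, on either strand, was in 17.1% of the member windows and in 17.8% of all, and TATAAA on the strand of the gene in 27.9% and in 27.7%. The windows printed are all of genes that rose. The core also lay upstream of YLR225C, lower in Dcp2-degron cells, and of YPL245W and YPR127W, lower in Ccr4/Pop2-degron cells. A match of letters is a description of the window and not of factor binding, and a part of the core in any change was not tested.

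When the Ccr4/Pop2 degron was compared with the same wild-type libraries, the question was which unnamed frames changed when the deadenylases were targeted. YDL144C, YGR079W, GAG1 and the mitochondrial ribosomal protein gene MRP35 rose most in Ccr4/Pop2-degron cells. CPP2, the subtelomeric Y′ frames and YCL068C were among those that fell most. With the block, edgeR called 13 of 129 members higher, where 14.2% of all genes were, and 27 lower, where 12.8% were. Of the named genes of the same depth, 15.2% were called higher and 17.3% lower. The median log2 change was -0.02 over the members, -0.06 over the named genes and -0.01 over all genes. Without the block edgeR called 0 members (0.0815% of all genes), 12 had an unadjusted p under 0.05 (7.99% of all genes), and DESeq2 called 0. Both CPM values lay above both wild-type values for 18 members, where 16.5% of all genes did so, and below them for 25, where 15.6% did. The calls with the block numbered 24 without replicate 1 of the Ccr4/Pop2 degron (16.1% of all genes), 20 without replicate 1 of the wild type (8.05%) and 23 without its replicate 2 (13.1%). Under total-count scaling with the block there were 25 higher (20.2% of all genes) and 17 lower (8.82%).

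YDL144C (chrIV:198662-199732, minus strand) had 102 and 134 CPM in Ccr4/Pop2-degron cells and 36.0 and 53.1 CPM in wild-type cells. The groups did not overlap, and the log2 change with the block was 1.42 (SE 0.16, edgeR, adjusted p = 6.83e-06, and 0.378 without the block). In Dcp2-degron cells it had 43.2 and 58.6 CPM, with a log2 change against the same wild-type libraries of 0.20 (SE 0.19) that was not called. YGR079W (chrVII:640720-641832, plus strand) had 134 and 125 CPM in Ccr4/Pop2-degron cells and 52.0 and 52.3 CPM in wild-type cells. Replicates lay close together and far from the other group, with a log2 change of 1.32 (SE 0.16).

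YLR407W (GAG1) had 89.6 and 149 CPM in Ccr4/Pop2-degron cells and 43.2 and 51.5 CPM in wild-type cells, without overlap, a log2 change of 1.27 (SE 0.18). YNL122C (MRP35) had 93.8 and 333 CPM in Ccr4/Pop2-degron cells and 45.3 and 134 CPM in wild-type cells. There the replicate 1 value of the degron lay under the replicate 2 value of the wild type, and the log2 change with the block was 1.19 (SE 0.15). YNL134C, an aldehyde reductase that RefSeq lists as uncharacterized, had 155 and 133 CPM in Ccr4/Pop2-degron cells and 83.3 and 95.0 CPM in wild-type cells, without overlap, a log2 change of 0.73 (SE 0.16). YOR342C and YBL059W (IAI11) rose by 0.71 and 0.65, and YNL184C, which overlaps YNL185C on the same strand so that their reads may be mixed, by 0.75.

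The deepest fall was that of YDR210W (CPP2, chrIV:871074-871301, plus strand), with 102 and 166 CPM in Ccr4/Pop2-degron cells and 197 and 464 CPM in wild-type cells. The groups did not overlap, and the log2 change with the block was -1.20 (SE 0.14, edgeR, adjusted p = 6.83e-06). It overlaps YDR209C on the other strand, and the use of strand in counting is not given in the sources used here. YPL199C, a protein with an Smr domain, had 60.9 and 80.2 CPM in Ccr4/Pop2-degron cells and 119.9 and 174 CPM in wild-type cells, a log2 change of -1.02 (SE 0.15). YGL039W, a carbonyl reductase, had 55.7 and 56.9 CPM in Ccr4/Pop2-degron cells and 119 and 114 CPM in wild-type cells, with replicates close together and a change of -1.05 (SE 0.15). Neither gene had overlapping groups. YCL068C, YIR035C (NRE1, a reductase), YPL245W and YLR126C fell by between 0.88 and 1.05 on the log2 scale.

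**Figure D2:**
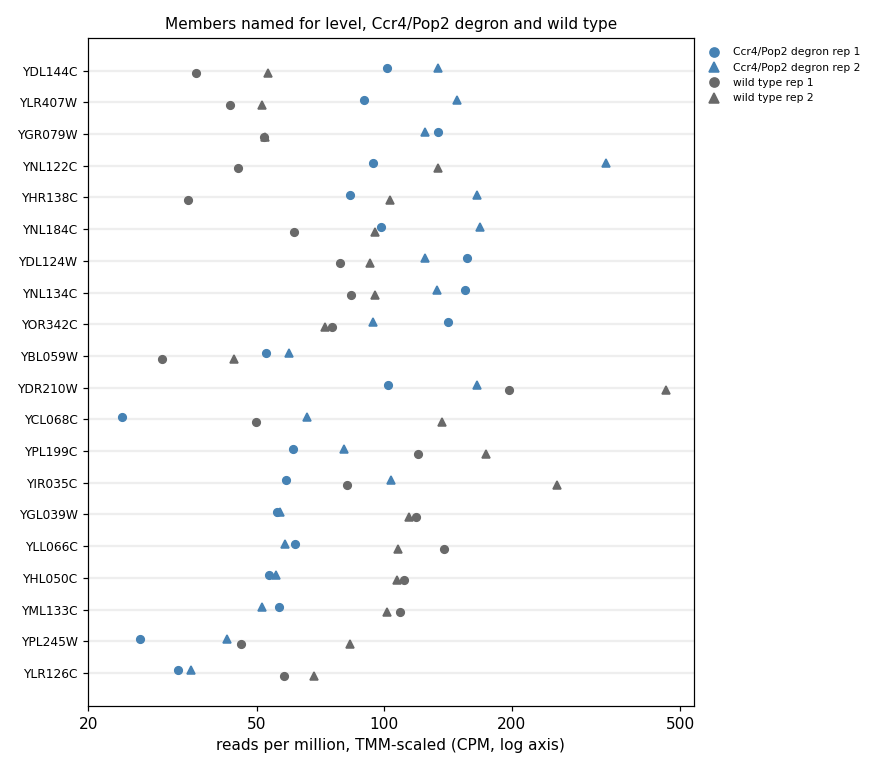
RNA level (CPM, log axis) of the 20 members named for level in the comparison of Ccr4/Pop2-degron with wild-type cells, with 1 point per library, circles for replicate 1 and triangles for replicate 2. The upper 10 rows are higher in Ccr4/Pop2-degron cells (blue) and the lower 10 rows lower in them, each relative to the wild-type library of the same number (grey).

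The Y′ elements are repeats next to telomeres that hold open reading frames for probable helicases. Of a list of 15 unnamed Y′ frames, 5 were members, 6 had fewer than 50 reads in a library and 4 were not unnamed rows of the table. This list too was chosen with earlier results of these data known, so its calls only describe its members. All 5 members were called lower in Ccr4/Pop2-degron cells with the block under both scalings, where 12.8% of all genes were under TMM and 8.82% under total counts. Their median log2 change was -0.97 and -0.86 on these scales. YLL066C had 61.7 and 58.3 CPM in Ccr4/Pop2-degron cells and 138 and 108 CPM in wild-type cells, a log2 change of -1.07 (SE 0.15, edgeR, adjusted p = 6.8e-05). YPR204W, whose change was the smallest of the 5 at -0.80 (SE 0.15), had 63.9 and 70.6 CPM in Ccr4/Pop2-degron cells and 118 and 112 CPM in wild-type cells. In each of the 5 genes both degron values lay below both wild-type values, where 15.6% of all genes did so. Summed over the 5, the level was 278 and 287 CPM in Ccr4/Pop2-degron cells and 566 and 511 CPM in wild-type cells.

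In Dcp2-degron cells the same 5 members summed to 572 and 493 CPM. None was called there against the wild type with TMM scaling, with a median log2 change of -0.05 with the block, whereas 4 of 5 were called higher with the block under total-count scaling, where 50.7% of all genes were. Between the degrons all 5 were called lower with the block in Ccr4/Pop2-degron cells than in Dcp2-degron cells, where 20.8% of all genes were. Their median log2 change was -0.96. YLL066C, YML133C, YHL050C and YHR219W are not separate measurements, because they share their coding 3′ ends, and nanopore reads begin at the 3′ end of the RNA. YPR204W shares a shorter stretch with them, and its own end also has copies elsewhere. The last 60 coding bases of each, read from RefSeq R64 on the strand of the gene, are shown for that reason, with the stretch at the 3′ end that all 5 share in capitals.
YLL066C (chrXII:6120-6179, minus strand): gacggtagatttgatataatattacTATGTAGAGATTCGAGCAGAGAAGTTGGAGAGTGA
YML133C (chrXIII:461-520, minus strand): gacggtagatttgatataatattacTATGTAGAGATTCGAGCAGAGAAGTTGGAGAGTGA
YHL050C (chrVIII:445-504, minus strand): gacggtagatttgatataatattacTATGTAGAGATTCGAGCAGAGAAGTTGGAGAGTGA
YHR219W (chrVIII:561988-562047, plus strand): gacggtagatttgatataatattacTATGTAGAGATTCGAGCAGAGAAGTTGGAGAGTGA
YPR204W (chrXVI:947642-947701, plus strand): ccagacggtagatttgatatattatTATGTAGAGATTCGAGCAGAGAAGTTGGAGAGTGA
The shared stretch is 35 bases long, and the first 4 sequences are identical over all 60. Counting from the 3′ end, YML133C and YHR219W are identical to YLL066C over 516 coding bases and YHL050C over 164. The last 150 coding bases of YLL066C, YML133C, YHL050C and YHR219W occur 8 times in the genome and those of YPR204W 5 times, so reads cannot be assigned to a single copy with certainty.

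The degron strains, which share the same background alleles, were also set against each other. YCL068C, YPL034W and YDR210W fell furthest in Ccr4/Pop2-degron cells relative to Dcp2-degron cells, and YLR225C, YDL144C and YHR054C rose furthest. With the block, edgeR called 22 of 129 members higher in Ccr4/Pop2-degron cells than in Dcp2-degron cells, where 26.3% of all genes were, and 38 lower, where 20.8% were. The named genes of the same depth had 39.9% higher and 13.3% lower. Without the block edgeR called 0 (0.00% of all genes), 20 had an unadjusted p under 0.05 (16.4% of all genes), and DESeq2 called 2. Both Ccr4/Pop2 values lay above both Dcp2 values for 21 members and below them for 36, where 23.4% and 22.2% of all genes did so. Total-count scaling with the block gave 4 higher (9.64% of all genes) and 73 lower (41.1%). The deepest fall was in YCL068C, with 24.0 and 65.8 CPM in Ccr4/Pop2-degron cells and 126 and 354 CPM in Dcp2-degron cells, a log2 change of -2.41 (SE 0.14, edgeR with the block, adjusted p = 1.64e-09, and 0.202 without the block). YLR225C was the furthest the other way, with 119 and 98.7 CPM in Ccr4/Pop2-degron cells and 40.7 and 44.5 CPM in Dcp2-degron cells, a log2 change of 1.35 (SE 0.17). Neither gene had overlapping groups. YPL034W, YDR210W, YNL046W and YOL014W were lower in Ccr4/Pop2-degron cells by log2 changes of -1.90, -1.80, -1.68 and -1.52.

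Both comparisons with the wild type use the same 2 wild-type libraries, so values of the members are given side by side and no count of shared calls is read. YJL068C, an S-formylglutathione hydrolase that acts in formaldehyde detoxification, had 124 and 180.5 CPM in Dcp2-degron cells, 126 and 166 CPM in Ccr4/Pop2-degron cells and 76.1 and 116 CPM in wild-type cells. Its log2 changes with the block were 0.67 (SE 0.15) and 0.63 (SE 0.14), both called higher. YER186C had 88.3 and 102 CPM in Dcp2-degron cells, 36.9 and 39.8 CPM in Ccr4/Pop2-degron cells and 52.0 and 78.9 CPM in wild-type cells, with no overlap between any of the 3. It was called higher in the first degron, at 0.57 (SE 0.17), and lower in the second, at -0.70 (SE 0.18). YLR225C was called the opposite way, with 40.7 and 44.5 CPM in Dcp2-degron cells, 119 and 98.7 CPM in Ccr4/Pop2-degron cells and 77.2 and 69.2 CPM in wild-type cells.

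Of a list of 19 unnamed oxidoreductases, 9 were members, 6 had fewer than 50 reads in a library and 4 were not unnamed rows of the table. It was likewise chosen with earlier results of these data known. With the block 3 of the 9 were called higher in Dcp2-degron cells and 1 lower (17.6% and 19.7% of all genes), with a median log2 change of 0.23. In Ccr4/Pop2-degron cells 2 were called higher and 3 lower (14.2% and 12.8% of all genes), with a median of 0.09. The 3 called higher in Dcp2-degron cells were YDL124W, YJR096W and YPL088W, whose RefSeq product names give the aldo-keto reductase superfamily. YPR127W, which RefSeq names a pyridoxine dehydrogenase, was not called higher there. Product names need not list every member of that superfamily, so no rise of the family is read. YPL088W had 80.3 and 128 CPM in Dcp2-degron cells, 44.6 and 72.7 CPM in Ccr4/Pop2-degron cells and 37.6 and 75.7 CPM in wild-type cells, with log2 changes of 0.91 (SE 0.17) and 0.09 (SE 0.17), of which the first was called (edgeR with the block, adjusted p = 0.000366). YMR226C (ORA1) was the member lower in Dcp2-degron cells, at -0.35 (SE 0.14), and under total-count scaling with the block all 9 changes were positive there and 7 were called higher, where 50.7% of all genes were. YDL124W and YNL134C were higher in Ccr4/Pop2-degron cells, while YGL039W, YIR035C and YPR127W, a pyridoxine dehydrogenase, were lower. YMR315W was called in neither. Of 5 unnamed frames of the DUP240 membrane protein family, 0 were members.

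Tail length was not used to choose the members. A gene's value is the median tail of its reads. The members ran from 14.5 nt (YOR131C) to 42.8 nt (YOR385W) in replicate 1 of the Dcp2 degron, from 36.0 nt (YHR020W) to 66.2 nt (YOL014W) in replicate 1 of the Ccr4/Pop2 degron, and from 26.8 nt (YKL069W) to 59.3 nt (YOL014W) in replicate 1 of the wild type. The median member tail measured 31.3 and 38.6 nt in Dcp2-degron cells, 50.6 and 51.6 nt in Ccr4/Pop2-degron cells, and 38.5 and 44.3 nt in wild-type cells. These are 35.0 ± 5.18 nt, 51.1 ± 0.658 nt and 41.4 ± 4.10 nt (SD, n = 2 each). Both Ccr4/Pop2 degron libraries lay above all others, whereas replicate 2 of the Dcp2 degron lay level with replicate 1 of the wild type. The difference was -6.44 nt in Dcp2-degron cells against the wild type (two-sided exact permutation test, p = 0.667), 9.66 nt in Ccr4/Pop2-degron cells against the wild type (exact p = 0.333) and 16.1 nt between the Ccr4/Pop2 and the Dcp2 degron (exact p = 0.333). With 2 against 2 libraries 0.333 is the smallest p this test can give. Between Dcp2-degron and wild-type cells the mean tail over members differed by -7.10 nt and the mean weighted by reads by -6.81 nt, both without overlap between groups (exact permutation p = 0.333).

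**Figure D3:**
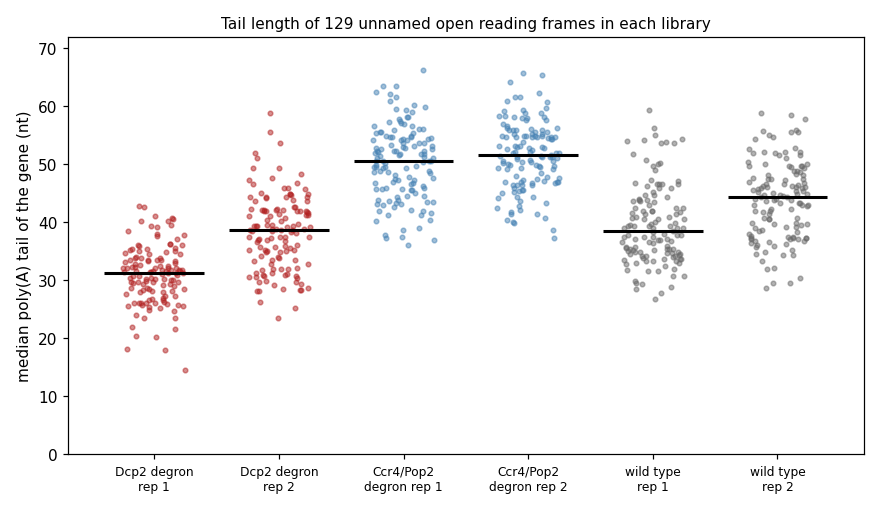
Median poly(A) tail length in nucleotides of each of the 129 members in each library, with 1 point per gene and a black bar at the median over members. The bars stand at 31.3 and 38.6 nt in Dcp2-degron cells, 50.6 and 51.6 nt in Ccr4/Pop2-degron cells, and 38.5 and 44.3 nt in wild-type cells.

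Gene by gene, tails were shorter in Dcp2-degron cells in 125 of 129 members and longer in Ccr4/Pop2-degron cells in 128, each relative to the wild-type mean on the log2 scale. The exceptions in Dcp2-degron cells were YCL012C, YER152C, YGR079W and YLR407W, and in Ccr4/Pop2-degron cells YDL124W. Both libraries lay below both wild-type libraries for 72 members in Dcp2-degron cells, where 44.9% did of the 3949 genes that had 20 reads or more in each library, and above them for 0 members, where 1.67% did. In Ccr4/Pop2-degron cells 118 members had both tails above both wild-type tails, where 90.0% of all genes did, and 0 had both below, where 0.253% did. The median log2 change in tail length was -0.25 in Dcp2-degron cells and 0.29 in Ccr4/Pop2-degron cells over the members, and -0.22 and 0.30 over all genes. In limma's test, adjusted over all 3949 genes, 0 members were called against the wild type in either degron (0.00% of all genes in both). At an unadjusted p under 0.05, 35 members were shorter in Dcp2-degron cells, where 19.8% of all genes were, and 33 longer in Ccr4/Pop2-degron cells, where 28.8% were. Without replicate 2 of the Dcp2 degron 82 members were called in the first comparison, where 52.5% of all genes were, with replicate 1 alone standing for the strain. When Ccr4/Pop2-degron and wild-type libraries were fitted without the Dcp2 degron, 76 members were called longer, where 59.2% of all genes were called.

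Between the degrons limma called 107 of 129 members longer in Ccr4/Pop2-degron cells than in Dcp2-degron cells, where 69.6% of all genes were called longer, and 0 shorter, where 0.0253% were. The tail of every member was longer in Ccr4/Pop2-degron cells by the mean, and 126 had no overlap between the degrons, where 95.7% of all genes had none. The median log2 change was 0.54 over the members and 0.53 over all genes. The count of calls was 0 without replicate 1 and 0 without replicate 2 of the Ccr4/Pop2 degron, and it was 88 without replicate 1 and 128 without replicate 2 of the Dcp2 degron, where 57.2% and 93.0% of all genes were called. With each library centred on its median gene it was 0, so no member was called relative to the median gene. In that fit 18 members had an unadjusted p under 0.05. Nothing is read from this number or from the 0 counts without a Ccr4/Pop2 degron library, since no share of all genes stands beside them.

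The 5 members with the most negative tail difference in Dcp2-degron cells and no overlap with the wild type were YCL068C, YOR131C, YPL034W, YIL077C and YPL071C. YCL068C had tails of 23.5 and 23.6 nt in Dcp2-degron cells, 55.6 and 53.2 nt in Ccr4/Pop2-degron cells and 43.8 and 43.3 nt in wild-type cells. Replicates lay close together and the 3 groups were far apart. Its log2 change in tail length was -0.89 (SE 0.11) against the wild type (limma, adjusted p = 0.11) and 1.21 (SE 0.11) between the Ccr4/Pop2 and the Dcp2 degron (limma, adjusted p = 0.0131). YOR131C, a putative haloacid dehalogenase-like hydrolase, had 14.5 and 28.3 nt in Dcp2-degron cells, 45.7 and 46.8 nt in Ccr4/Pop2-degron cells and 35.4 and 37.5 nt in wild-type cells. Its Dcp2 degron replicates lay further apart than the higher of them lay from the wild type.

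YPL034W had tails of 30.1 and 39.4 nt in Dcp2-degron cells, 60.3 and 65.8 nt in Ccr4/Pop2-degron cells and 53.7 and 56.0 nt in wild-type cells. YPL071C had 29.6 and 30.6 nt, 52.3 and 52.7 nt and 46.6 and 46.1 nt in the same order of strains. In both genes the 3 strains kept apart. The stress-list members also had shorter tails in Dcp2-degron cells without overlap: over the 3 genes the median was 31.7 and 39.3 nt in Dcp2-degron cells, 55.6 and 50.3 nt in Ccr4/Pop2-degron cells, and 54.3 and 52.7 nt in wild-type cells. For these 3 genes the Ccr4/Pop2 degron overlapped the wild type. YHR138C had 31.7 and 41.9 nt in Dcp2-degron cells, 59.9 and 55.9 nt in Ccr4/Pop2-degron cells and 56.3 and 52.1 nt in wild-type cells.

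The 5 members with the largest positive tail difference in Ccr4/Pop2-degron cells and no overlap with the wild type were YPL039W, YGL108C, YGR079W, YLR407W and YPL108W. YPL039W had 49.6 and 53.1 nt in Ccr4/Pop2-degron cells and 29.9 and 36.3 nt in wild-type cells, a log2 change of 0.64 (SE 0.19, limma, adjusted p = 0.165). YGL108C had 54.6 and 54.7 nt in Ccr4/Pop2-degron cells and 38.5 and 32.1 nt in wild-type cells. YGR079W, which also rose in level, had 58.1 and 58.2 nt in Ccr4/Pop2-degron cells and 35.6 and 39.9 nt in wild-type cells. Groups did not overlap in any of them. In YLR407W the tails were 35.0 and 44.4 nt in Dcp2-degron cells, 53.7 and 55.2 nt in Ccr4/Pop2-degron cells and 30.7 and 42.3 nt in wild-type cells, so it was among the 4 members not shorter in Dcp2-degron cells. YPL108W and YLR049C (MLO50) had log2 differences in tail of 1.06 and 1.02 between the Ccr4/Pop2 and the Dcp2 degron (limma, adjusted p = 0.0194 and 0.0132).

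In wild-type cells the longest tails were those of YOL014W at 57.4 ± 2.69 nt, YDR391C (IAT4) at 56.2 ± 3.22 nt and the Y′ frame YHR219W at 54.9 ± 0.272 nt (SD, n = 2 each). The shortest were those of YKL069W, a methionine sulfoxide reductase, at 27.7 ± 1.28 nt, YGL242C (ANK1, an ankyrin repeat protein) at 28.7 ± 1.28 nt and YMR099C, a glucose-6-phosphate epimerase, at 28.9 ± 0.721 nt. Neighbours in this order did not differ beyond their spread, while the longest and the shortest were apart by far more than it. YKL069W stayed short in every strain, with 23.5 and 25.1 nt in Dcp2-degron cells and 37.0 and 37.2 nt in Ccr4/Pop2-degron cells, and YOL014W stayed long, with 42.6 and 43.7 nt and 66.2 and 64.2 nt. The 5 Y′ members had a median tail of 40.6 and 42.7 nt in Dcp2-degron cells, 61.5 and 60.7 nt in Ccr4/Pop2-degron cells, and 54.0 and 54.4 nt in wild-type cells, with no overlap between strains. Over the 129 members the tail correlated between replicates at a Spearman coefficient of 0.61 in Dcp2-degron cells, 0.88 in Ccr4/Pop2-degron cells and 0.85 in wild-type cells.

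Level and tail were set beside each other last. In Dcp2-degron cells the median log2 change in tail length was -0.36 over the 30 members called higher in level with the block, -0.16 over the 14 called lower and -0.25 over the 85 not called. In Ccr4/Pop2-degron cells it was 0.36 over the 13 called higher, 0.25 over the 27 called lower and 0.30 over the 89 not called. Over the 129 members the Spearman coefficient of level change with tail change was -0.36 in Dcp2-degron cells and 0.12 in Ccr4/Pop2-degron cells, and over the named genes of the same depth -0.57 and -0.03. Both changes come from the same libraries and share them. With the level change taken from same-numbered libraries of one replicate and the tail change from those of the other, the coefficient for the Dcp2 degron was -0.39 and -0.13.

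**Figure D4:**
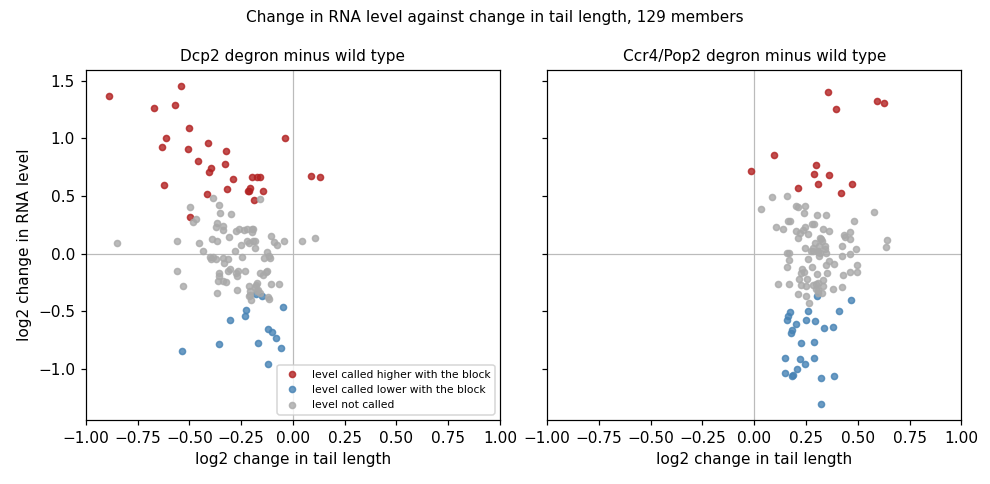
Log2 change in RNA level (y axis) against log2 change in tail length (x axis) of the 129 members, for the Dcp2 degron (left) and the Ccr4/Pop2 degron (right), each minus the wild type, with 1 point per gene. Red points were called higher and blue points lower in level with the replicate block, and grey points were not called. In Dcp2-degron cells 125 points lie left of 0 and in Ccr4/Pop2-degron cells 128 lie right of it.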

How the data were processed

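Native RNA of 6 libraries was extracted with hot phenol and sequenced by nanopore with the direct RNA kit SQK-RNA002, per the labels' protocols. The authors deposited 1 table, in which the count columns are whole read counts per gene and library, per the file headers, with no normalization. Its median columns, a signal in the deposited table, were taken as median poly(A) tail lengths in nucleotides from the table's name and range. The mean tail (signal), mean count and log2 mean count columns deposited by the authors, and a column that counts libraries with a value, were not used for results. The submitters' processing notes name minimap2, SAMtools 1.9 and sacCer3, and how reads were assigned to genes is not given in the sources used here. Replicate 1 and replicate 2 columns were told apart by the numeral 2 in the headers, and 0 columns matched no sample.

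RNA level was tested on counts of all 4909 genes with edgeR 4.0.16 (TMM scaling, quasi-likelihood test, 3 groups in 1 model, filterByExpr, which removed 0 genes) in R 4.3.3, with Benjamini-Hochberg adjustment over all genes and a threshold of 0.05. Same-numbered libraries deviated together in level for every pair of groups (correlations of 0.804, 0.823 and 0.794 over genes), so the replicate number was taken as a pairing and the blocked fit is given beside the fit without it. The study states no pairing, so the fit without the block was the planned one. The tail was tested on log2 values with limma 3.58.1 for 3949 genes that had 20 or more reads per library. DESeq2 1.42.0, other scalings, other gene filters and leaving out each library were alternatives. Nothing is read from the DESeq2 counts of members, since no share of all genes stands beside them. The steps were tested on simulated data.

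The members were chosen by their read counts, and members and gene lists were chosen with earlier results of these data known. Genes were named by rank: up to 10 each way per degron for level among members called with or without the block whose pairs moved the same way, up to 5 each way between degrons, 5 each way for tail without overlap, the extremes of the wild type, the members at the read minimum and the list members. YER186C and YJL068C were named after their values were seen. Replicate counts within a group differed by far more than sampling noise, so all 6 libraries were kept as separate samples. Technical differences between libraries can give such a spread too, so it does not show that the cultures were separate. Sequences and annotation are from RefSeq assembly R64 (R64-5-1), matched by locus tag.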

Additional observations from a re-analysis of the deposited data

How the results depend on the processing

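Members called for level without the block numbered 0 in every comparison, also with each library left out, under other scalings, and with replicate 1 of the Ccr4/Pop2 degron divided by 4, except that DESeq2 called 2 between the degrons. With the replicate block there were 44, 40 and 60, in this order: Dcp2 degron vs wild type, Ccr4/Pop2 degron vs wild type, Ccr4/Pop2 vs Dcp2 degron. Of all genes 37.4%, 27.0% and 47.1% were called with it. With the block and total counts the member calls were 86, 42 and 77, and with the block and that library divided by 4, 46, 38 and 58, an alternative chosen after seeing the data. Leaving out 1 library with the block, also added after seeing the data, gave 44, 41, 19 and 27 in the first comparison (without replicates 1 and 2 of the degron and then of the wild type), 24, 36, 20 and 23 in the second (same order) and 45, 53, 49 and 55 between the degrons (without those of the Ccr4/Pop2 and then of the Dcp2 degron). For tails, leaving out 1 library gave 0 to 82 members in the first comparison (1 without Dcp2 degron replicate 1, 82 without its replicate 2), and 0 to 128 between the degrons (0 without either Ccr4/Pop2 library). The second comparison gave 76 when fitted on those 4 libraries, and the degrons gave 0 with each library centred. The replicate block on tails, where same-numbered libraries correlated at 0.257, 0.148 and 0.0548, gave 0, 0 and 125, where 0.00%, 0.00% and 83.9% of all genes were called. Nothing is read from counts that have no share of all genes beside them. The level change without the block reversed to -0.18 for YBR062C (Dcp2 degron, without its replicate 2), to 0.20 for YDL121C (Dcp2 degron, without wild type replicate 2) and to -0.37 for YNL122C (between the degrons, without Ccr4/Pop2 replicate 2), where leaving out each library gave -0.18 to 1.85, -1.28 to 0.20 and -0.37 to 1.86. The cause of these moves was not tested, and a lone library is assumed to vary like the other groups.

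Of the other values named by gene, 578 for level and 109 for tail kept their direction and side of the threshold, 319 and 11 passed it anew, and 15 for tail no longer did. Libraries held from 1067250 to 8450296 reads, the highest of them uncertain, and every member had at least 50 reads in each.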
